A study of Mus musculus with 10 samples.

Results

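The mitochondrial ribosomal protein genes encode the protein parts of the mitoribosome, the particle that translates the few proteins made inside mitochondria. They were chosen by name, as the protein-coding rows whose symbol in GENCODE vM21 begins with Mrpl or Mrps and a digit. The rule gave 78 of the 55487 genes in the tables, 49 with large-subunit symbols (Mrpl) and 29 with small-subunit symbols (Mrps). Expression was measured by RNA-seq in 3 replicates of E14, a mouse embryonic stem cell line, all unperturbed and all grown in serum with LIF, a GSK inhibitor and a MEK1/2 inhibitor. The replicates form a single group of 1 cell line, so differences were measured between genes and between libraries, not between conditions. Nothing in the labels says that the replicates came from separate cultures, so their spread may be technical. The other 7 samples of the series, maps of R-loops by MapR and BisMapR with their controls, were not analysed here.

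All proteins of the mitoribosome are encoded in the nucleus, made in the cytosol and imported, whereas its ribosomal RNAs come from the mitochondrial genome. The large subunit forms peptide bonds and holds the exit tunnel, and the small subunit reads the messenger RNA. Some of the proteins have a counterpart in the bacterial ribosome, and others are special to mitochondria. The particle makes only subunits of the respiratory chain and ATP synthase, so it is needed for oxidative phosphorylation.

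Estimated counts summed to 11420425 in replicate 1, 6467405 in replicate 2 and 5787357 in replicate 3. In CPM, counts scaled to equal library totals, 3 counts came to 0.263, 0.464 and 0.518, and lower values were treated as not detectable. The 6 pluripotency markers examined had a mean of 16.6 TPM or more, where TPM is a transcript abundance scaled for length and library. The 8 lineage markers stayed below a mean of 1 TPM. Of these, Eomes was detected in every replicate, with 0.97, 1.05 and 0.84 TPM from 78, 62 and 52 counts. The next highest, Pax6, had a mean of 0.0867 TPM. Of the 4 fibroblast markers, checked because feeder cells can be carried along, the collagen genes Col1a1 and Col1a2 were at 0.0767 and 0.00667 TPM on average, and the summed level of all 4 was 22.1, 22.1 and 16.6 TPM in replicates 1, 2 and 3. Vim, which many cell types express, gave most of that sum with a mean of 17.7 TPM, and Thy1, a surface protein also found on other cells, had 3.02, 3.30 and 1.19 TPM, so 2 of the 4 reached 1 TPM.

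All 78 genes were expressed, here meaning a mean of at least 1 TPM. The share over all protein-coding genes was 44.1%, or 9683 of 21974. No gene of the 78 fell below 44, 23 and 22 counts in the respective libraries, so each lay above the limit of 3 counts throughout. Together they held 0.274%, 0.274% and 0.295% of all counts in replicates 1, 2 and 3, with Wilson 95% intervals of 0.271 to 0.277, 0.270 to 0.278 and 0.291 to 0.300. The intervals reflect counting error alone, as reads copied by PCR do not stand for separate molecules.

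Levels were moderate and fell within a narrow band. The median gene was at 12.7, 10.5 and 9.74 TPM in replicates 1, 2 and 3. By mean TPM, 56 of the 78 lay between 5 and 20 TPM, 13 lay above 20 and 9 lay below 5. The quartiles were 8.16 and 16.4 TPM, a ratio of 2.0, and 58 genes lay within 2-fold of the median gene. The SD over genes of mean log2(TPM + 1) was 0.844, beside 1.64 for the 84 cytoplasmic ribosomal protein genes and 1.47 for all expressed protein-coding genes. The 84 were not cut at 1 TPM as the expressed genes were, and their lowest mean was 0.22 TPM. These SDs describe the groups, and no test was made between them.

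**Figure D1:**
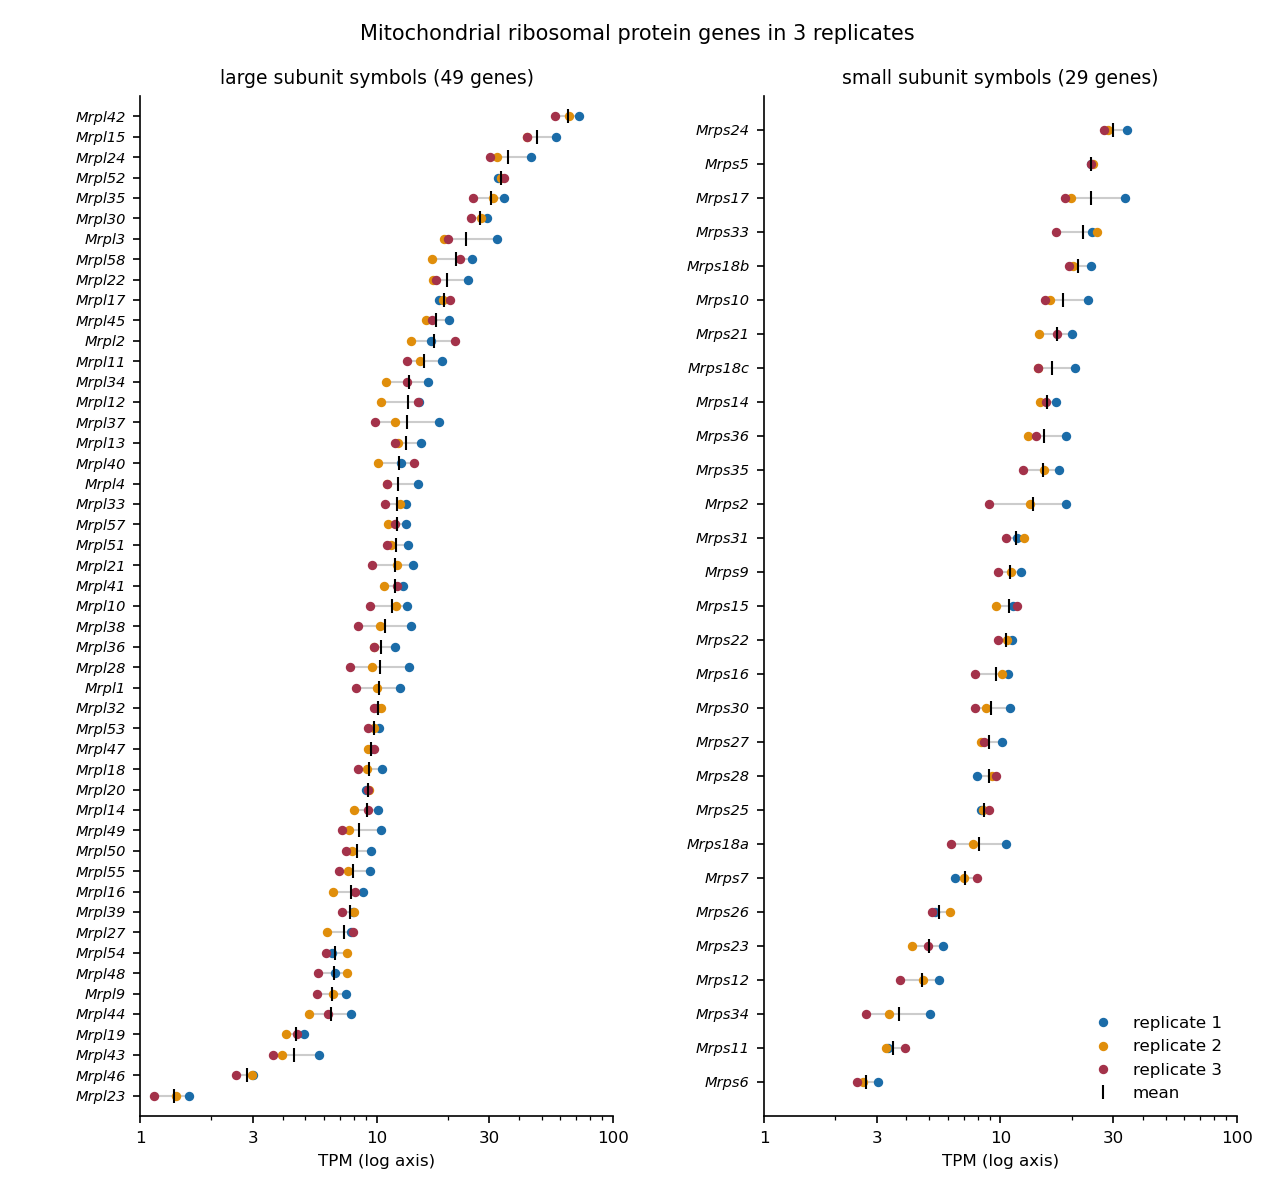
TPM of each gene (log axis) in the 3 replicates, with the mean as a vertical tick and a grey line over the range, for the 49 large-subunit and 29 small-subunit symbols. Most genes lie between 5 and 20 TPM, with Mrpl42 and Mrpl15 above the rest and Mrpl23 lowest.

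In the large subunit the highest gene was Mrpl42 (ENSMUSG00000062981, chromosome 10, 95480805 to 95501940, GRCm38), which encodes a protein special to mitochondria. Mrpl42 had 71.9, 65.0 and 57.1 TPM in replicates 1, 2 and 3. Mrpl15 (ENSMUSG00000033845, chromosome 1, 4773206 to 4785739), a core protein with a bacterial counterpart, came next at 57.6, 43.1 and 43.1 TPM. Mrpl42 was above Mrpl15 in each replicate, although its lowest value, in replicate 3, was below the highest of Mrpl15, in replicate 1. Mrpl24, whose product lies at the exit of the tunnel, had 45.0, 32.4 and 30.1 TPM. Mrpl52, a protein special to mitochondria, had 32.8, 33.7 and 34.6 TPM, and Mrpl35, a bacterial-type protein, 34.8, 31.0 and 25.6 TPM. Those last 3 genes overlapped in their replicate values and could not be ordered.

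The lowest large-subunit genes were Mrpl23, Mrpl46, Mrpl43, Mrpl19 and Mrpl44. Mrpl46 had 2.99, 2.96 and 2.53 TPM, and Mrpl43 had 5.73, 3.99 and 3.66 TPM. Both encode proteins special to mitochondria. Mrpl19, a bacterial-type protein, had 4.93, 4.13 and 4.61 TPM from 581, 343 and 364 counts over a long gene model of 4430 nt. Mrpl44, whose product carries a ribonuclease III-like fold, had 7.77, 5.20 and 6.26 TPM. Mrpl23 (ENSMUSG00000037772, chromosome 7, 142532686 to 142540747) was lowest of all 78 at 1.61, 1.41 and 1.14 TPM, a level that depends on how shared reads were assigned, as described further on.

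In the small subunit the range was narrower at the top. Mrps24 (ENSMUSG00000020477, chromosome 11, 5703983 to 5715680), the counterpart of a bacterial protein at the messenger RNA entry, had 34.2, 28.5 and 27.3 TPM. Mrps5, another protein of that region, had 24.1, 24.6 and 24.1 TPM and had the smallest range of all 78 genes between replicates in TPM as deposited, though in CPM after TMM scaling it ran from 80.3 to 94.2. Mrps17, a bacterial-type protein, had 33.6, 19.97 and 18.8 TPM. Replicate 1 stood alone for Mrps17, which overlapped both Mrps24 and Mrps5. Mrps33, special to mitochondria, had 24.4, 25.7 and 17.2 TPM, and Mrps18b 24.3, 20.4 and 19.5 TPM.

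The lowest small-subunit genes were Mrps6, Mrps11, Mrps34, Mrps12 and Mrps23. Mrps6 (ENSMUSG00000039680, chromosome 16, 92058270 to 92112227), a bacterial-type platform protein, had 3.03, 2.62 and 2.46 TPM. Mrps11, its neighbour on the platform, had 3.33, 3.28 and 3.95 TPM. Mrps34, special to mitochondria, had 5.05, 3.38 and 2.71 TPM, and Mrps23, of the same class, 5.74, 4.21 and 4.96 TPM. Mrps12, whose bacterial counterpart helps keep decoding accurate, had 5.50, 4.71 and 3.75 TPM. Replicate 3 of Mrps6 was the lowest value of any small-subunit gene.

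The ratio of the highest gene to the lowest was 46.6, and it was 23.9 with Mrps6 in place of Mrpl23. Most of the order between those ends was not resolved. Of 77 pairs of neighbours in the order of mean TPM, the replicate values of 3 did not overlap, and 7 pairs kept the same order in all replicates. The order was nevertheless similar between libraries at large, with a Spearman rho of TPM over the 78 genes of 0.968 for replicates 1 and 2, 0.921 for replicates 1 and 3, and 0.946 for replicates 2 and 3. The points share gene models and length scaling, so these are descriptions.

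Small and large subunit differed by less than the spread between libraries, and the direction depended on which genes were counted. The median large-subunit gene had 13.3, 10.5 and 9.77 TPM in replicates 1, 2 and 3, and the median small-subunit gene 11.3, 10.7 and 9.72 TPM. The difference in median log2(TPM + 1), large minus small, was 0.21, -0.02 and 0.01, with a mean of 0.07 ± 0.13 (SD, n = 3). Replicate 1 alone gave a clear positive value, and without it the difference was -0.01. Adding the mitoribosomal proteins of other names turned it to -0.09, and placing every protein by its position in the particle as well, a setting chosen after seeing the data, turned it to -0.22. Without the genes that had non-whole counts it was 0.18. With 3 libraries of 1 group no test of this difference across samples was made.

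Some symbols name the wrong subunit. In the mammalian particle the products of Mrps30 and Mrps18a sit in the large subunit, and that of Mrps36 is a subunit of the 2-oxoglutarate dehydrogenase complex. Mrps30 had 10.96, 8.73 and 7.78 TPM, Mrps18a 10.6, 7.67 and 6.16 TPM, and Mrps36 18.9, 13.1 and 14.1 TPM. All 3 lay between the lowest and highest small-subunit genes. With Mrps30 and Mrps18a moved and Mrps36 left out, the difference between subunits was 0.03 on the same scale.

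Mrps18a, Mrps18b and Mrps18c encode proteins related to each other and to a single bacterial protein. The product of Mrps18c holds the place of that protein, so Mrps18c is counted below as having a bacterial counterpart, and Mrps18a and Mrps18b as special to mitochondria. Mrps18c had 20.7, 14.4 and 14.4 TPM beside the values of Mrps18a and Mrps18b given above. Mrps18a was below both others in every replicate. Mrps18b was above Mrps18c in every replicate, although replicate 1 of Mrps18c exceeded replicates 2 and 3 of Mrps18b.

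By origin, 46 genes encode proteins with a bacterial counterpart and 31 encode proteins special to mitochondria, leaving Mrps36 in neither class. The median bacterial-type gene had 13.6, 11.02 and 9.78 TPM, and the median gene special to mitochondria 10.96, 9.76 and 8.92 TPM. The difference in median log2(TPM + 1) was 0.29, 0.16 and 0.12 in replicates 1, 2 and 3, or 0.19 ± 0.09 (SD, n = 3). The median of the bacterial-type genes was thus higher in 3 of 3 libraries, by a small amount. The same genes were read in each library, so the SD covers libraries and not the spread over genes. By mean TPM the quartiles were 9.14 and 17.5 for bacterial-type genes, and 7.20 and 12.9 for genes special to mitochondria. The classes thus overlapped. In CPM, without length scaling, the difference was 0.05.

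The same direction held in each subunit. Among large-subunit genes the medians of mean TPM were 11.8 for 30 bacterial-type genes and 10.9 for 19 genes special to mitochondria. Among small-subunit genes they were 12.4 for 16 and 9.06 for 12. The highest gene of all, Mrpl42, belongs to the class with the lower median.

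By place in the particle, the medians of 6 groups of genes ran from 10.87 to 18.6 TPM, and the range inside most groups was wider than that. The 3 genes of the stalk that recruits translation factors, Mrpl10, Mrpl11 and Mrpl12, ran from 11.6 to 15.9 TPM on average. Of the 6 genes for proteins around the tunnel exit, Mrpl24 was highest at 35.8 TPM and Mrpl23 lowest at 1.39 TPM, with a median of 18.6 TPM. Among 5 genes for proteins near the peptidyl transferase centre and upper tunnel, the mean ran from 7.29 TPM for Mrpl27 to 23.9 TPM for Mrpl3. The 5 bacterial-type genes from Mrpl32 to Mrpl36 ran from 10.1 to 30.5 TPM. On the small subunit, 5 genes for proteins of the decoding region and messenger RNA path ran from 4.65 TPM for Mrps12 to 29.99 TPM for Mrps24, and 5 platform genes from 2.70 TPM for Mrps6 to 17.4 TPM for Mrps21. Mrpl58, which encodes a peptidyl-tRNA hydrolase that rescues stalled mitoribosomes, had 25.3, 17.2 and 22.6 TPM. Mrpl45, which helps tether the particle to the inner membrane, had 20.3, 16.2 and 17.1 TPM. These groups were formed after the values were seen and were not tested.

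The value of Mrpl23 rested on a shared sequence. The processed pseudogene Mrpl23-ps1 (ENSMUSG00000075279, chromosome 2, 74591330 to 74591909) is a copy of its messenger RNA. Over the 441 coding bases of the Mrpl23 transcript ENSMUST00000038675 the annotated pseudogene of 580 nt had 0 mismatches and 0 gaps, and the identical run reached 540 nt in the whole transcript. The first 90 coding bases of Mrpl23, and the same stretch of the pseudogene (its bases 18 to 107), are shown because they carry the point. Capitals would mark bases that differ, and there are none.
Mrpl23: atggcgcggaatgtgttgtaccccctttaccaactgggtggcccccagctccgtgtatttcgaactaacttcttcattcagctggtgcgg
Mrpl23-ps1: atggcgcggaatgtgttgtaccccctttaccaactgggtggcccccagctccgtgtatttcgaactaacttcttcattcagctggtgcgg
Reads of such a stretch match both loci equally well. Mrpl23 was given 44.1, 23.7 and 22.2 estimated counts in replicates 1, 2 and 3, and Mrpl23-ps1 121.9, 74.3 and 64.8. The gene thus received 26.6%, 24.2% and 25.5% of the sum of 166, 98 and 87 counts. The sum was a whole number in every replicate although its parts were not. Summed over both rows the level would be 11.8, 10.5 and 8.78 TPM, a mean of 10.3 ± 1.49 (SD, n = 3), which would rank 45 among the 78. The rows are scaled to unlike lengths, 1111 nt for Mrpl23 and 580 nt for Mrpl23-ps1. Most of the summed TPM comes from the shorter pseudogene. The same counts over 1111 nt would give a lower level and a lower place. The coding transcripts of Mrpl23 compared with the pseudogene are shorter than that, at 692, 736 and 590 nt. The summed level and place thus depend on the length taken. Which locus the reads came from was not tested.

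Other genes shared sequence too. For each gene the longest annotated coding sequence was divided into all its 50-mers, runs of 50 bases, and these were looked for in the same strand of every transcript of every other gene. In 49 of the 78 none was found elsewhere on that strand. With either strand searched, some of these 49 did share 50-mers, most of all Mrpl43 (58.9%), Mrps30 (41.7%) and Mrps34 (40.5%). Whether such reads were kept apart is not known, because the strand setting is not given. On the same strand over 40% were shared in 12 genes, among them Mrps36 (90.8%), Mrps33 (81.6%) and Mrpl23 (79.8%). For Mrpl53 the share was 100%, with the gene Gm42688, a protein-coding record that overlaps it on chromosome 6. Estimated counts were whole to within 0.005 in every replicate for 58 genes, and in no replicate for 8: Mrps18c, Mrpl30, Mrps10, Mrps33, Mrpl23, Mrps6, Mrpl53 and Mrpl48.

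In the 3 genes that follow the other locus took fewer counts than the member. Mrps33 had 300.7, 206.0 and 159.0 counts, beside 59.3, 33.0 and 22.97 for the pseudogene Gm5776 on chromosome 7. Mrpl48 had 259, 140 and 122 counts, beside 34.9, 26.1 and 26.5 for Mrpl48-ps. Mrpl53 had 156, 102 and 98.0 counts, beside 33.8, 21.9 and 12.4 for Gm42688. The 3 pseudogenes of Mrps36 that bear its name had at most 2.78 counts each in any replicate, below 3 counts. The levels of genes that share sequence depend on this split.

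**Figure D2:**
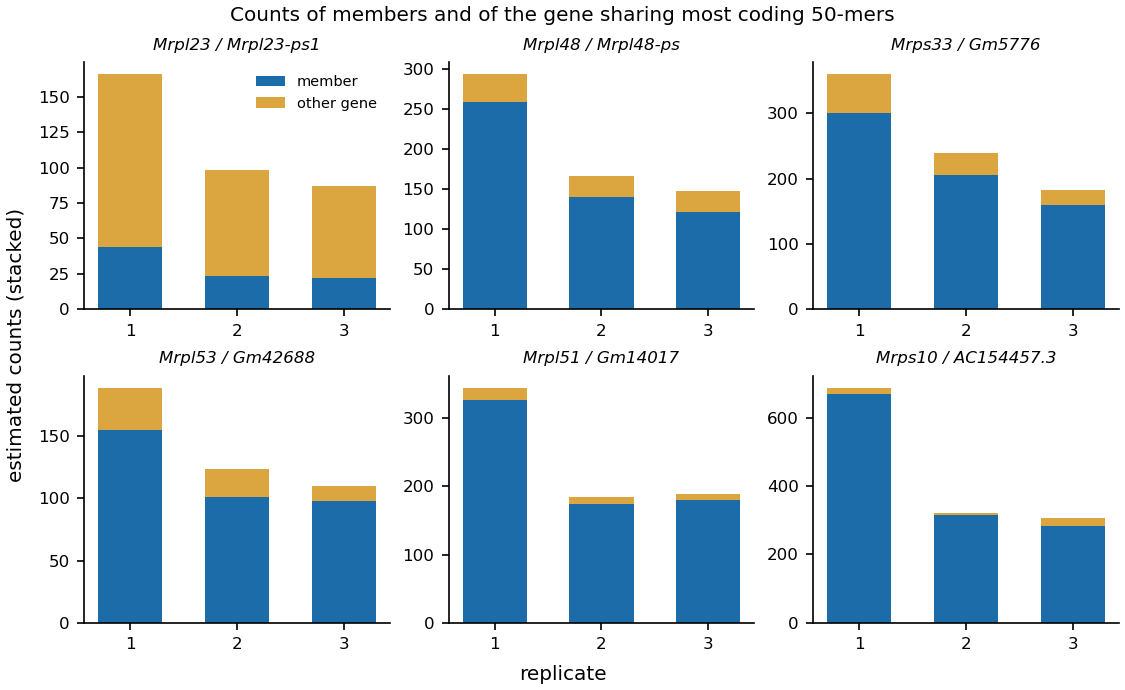
Estimated counts in each replicate (stacked bars from 0) of 6 genes and of the other gene that shares most of their coding 50-mers. The other gene holds most of the counts for Mrpl23 and Mrpl23-ps1, and a minority in the remaining 5 panels.

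The 84 cytoplasmic ribosomal protein genes, named for the ribosome of the cytosol, were set beside the mitochondrial ones. They were chosen by Rpl and Rps symbols, which leaves out Fau and takes in paralogs of like name. Their lowest mean was 0.22 TPM. Their median was 248, 249 and 215 TPM in replicates 1, 2 and 3, which was 21.6 times that of the mitochondrial genes. On the log2(TPM + 1) scale the difference was 4.19, 4.44 and 4.33, or 4.32 ± 0.13 (SD, n = 3). Of the 84, 71 lay above Mrpl42, the highest mitochondrial gene, and 2 lay below the mitochondrial median.

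Against all 9683 expressed protein-coding genes the mitochondrial ribosomal protein genes were higher. The median expressed gene had 7.11, 5.58 and 4.39 TPM, so the ratio of medians was 1.93. In log2(TPM + 1) the difference was 0.753, 0.802 and 0.995, or 0.85 ± 0.13 (SD, n = 3), and 68 of the 78 lay above the median of expressed genes. By mean TPM, Mrpl42 was at the 96.3 percentile of expressed protein-coding genes and Mrpl23 at the 7.07 percentile. The direction depended on length scaling. The genes are short, with a median length of 1071 nt beside 2191 nt for expressed protein-coding genes, and in CPM the difference was -0.21.

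**Figure D3:**
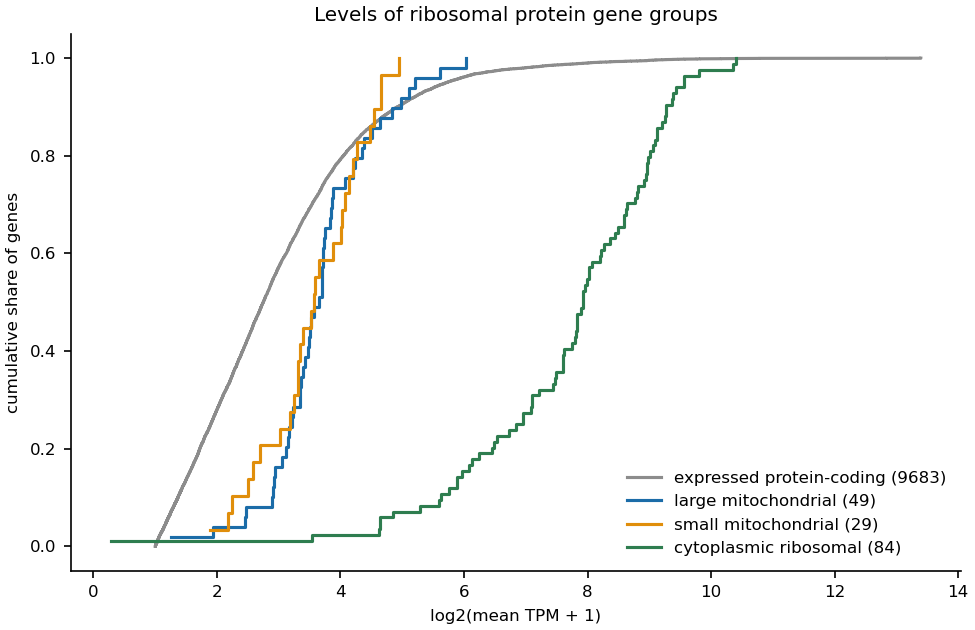
Cumulative share of genes (vertical axis) by log2 of mean TPM plus 1 (horizontal axis) for the large and small mitochondrial subunits, the cytoplasmic ribosomal protein genes and all expressed protein-coding genes. The mitochondrial curves lie together, rise steeply and lie far to the left of the cytoplasmic curve.

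The mitoribosome also holds proteins whose symbols do not match the rule. Of the 5 listed, Ptcd3, a pentatricopeptide protein of the small subunit, was highest with 73.8, 53.4 and 52.9 TPM. Aurkaip1, also of the small subunit, had 48.0, 34.7 and 38.8 TPM. Dap3, a GTP-binding protein of the small subunit, had 33.0, 25.6 and 25.2 TPM, and Chchd1 had 17.8, 16.1 and 13.2 TPM. Gadd45gip1, of the large subunit, had 3.29, 2.92 and 3.19 TPM. The 4 small-subunit genes were all above the median of the 78, and Gadd45gip1 was below it.

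In TPM, the genes that build and run the mitoribosome were mostly lower than the median of its own parts. No comparison without length scaling was made for these lists. Of 24 assembly factors, 23 reached a mean of 1 TPM and 6 lay above the median of the 78, with a list median of 4.29 TPM. The highest were Fastkd2, an RNA-binding factor of the large subunit RNA, at 18.7 ± 4.602 TPM and Malsu1, which keeps the immature large subunit from joining, at 15.8 ± 4.25 TPM (SD, n = 3). The lowest were Ybey, an endoribonuclease, at 0.403 ± 0.146 TPM and Mrm2, an rRNA methyltransferase, at 1.04 ± 0.156 TPM (SD, n = 3).

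Of 15 translation factors and messenger RNA handling proteins, all reached 1 TPM and 6 lay above the median of the 78. Slirp, which stabilises mitochondrial messenger RNA together with Lrpprc, was highest at 28.1 ± 1.64 TPM and Tufm, the elongation factor that delivers tRNA, next at 16.0 ± 4.56 TPM (SD, n = 3). Taco1, a translational activator, and Mtrf1l, a release factor, were lowest at 1.26 ± 0.137 and 1.56 ± 0.388 TPM (SD, n = 3). Of 17 mitochondrial tRNA synthetases, 16 reached 1 TPM, with a list median of 3.30 TPM. Iars2 had 9.74 ± 2.00 TPM (SD, n = 3), and Mars2 and Wars2 were lowest at 0.900 ± 0.219 and 1.37 ± 0.234 TPM (SD, n = 3).

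The mitochondrial ribosomal RNAs, which share the particle with these proteins, were measured after ribosomal RNA depletion and so do not give its amount. mt-Rnr1 had 118, 39 and 6 counts in replicates 1, 2 and 3, and mt-Rnr2 196, 74 and 12. In TPM, mt-Rnr1 had 5.32, 2.54 and 0.38 and mt-Rnr2 5.0, 2.72 and 0.44, so both were highest in replicate 1 and lowest in replicate 3. Of the pair, 1 passed the filter on low counts, and it varied between replicates in the edgeR test described next.

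The next question was whether these genes varied between replicates. None of the 78 varied by more than genes of similar abundance by the goodness-of-fit test of edgeR at a Benjamini-Hochberg threshold of 0.05 over 12577 genes, beside 1.84% of all genes tested, and none did with DESeq2 size factors. At an unadjusted p under 0.05 there were 4 of 78, beside 6.96% of all genes, and 5 with DESeq2 size factors. The 4 were Mrpl12, Mrps7, Mrpl40 and Mrps28. Mrpl12, a stalk protein, had the smallest adjusted p by edgeR, 0.492, with 38.8, 33.9 and 60.3 CPM after TMM scaling. The ratio of the highest to the lowest TPM of a gene ran from 1.02 for Mrps5 to 2.12 for Mrps2, with a median of 1.33. It was taken from TPM as deposited, in which 86.5% of expressed protein-coding genes were highest in replicate 1. The ratio thus mixes a shift of whole libraries with variation of single genes, and it was not computed over other genes.

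Replicate 3 stood apart in a common direction that single-gene tests did not show. It was set against the others because earlier results of these data had shown it to stand apart. In CPM after TMM scaling, which makes the bulk of genes equal between libraries, 71 of the 78 were higher in replicate 3 than in the mean of replicates 1 and 2, beside 49.6% of all protein-coding genes tested. The median log2 difference was 0.284 over the 78 and -0.003 over protein-coding genes. It was 0.31 in the large and 0.27 in the small subunit. The 7 genes that were not higher were Mrpl37, Mrpl38, Mrpl28, Mrps17, Mrps2, Mrps12 and Mrps34. Mrps2 fell lowest, with 84.4, 76.0 and 65.4 CPM, and Mrpl27 was at the other end with 7.33, 7.34 and 13.7 CPM. Replicates 1 and 2 differed by a median of -0.04 over the 78.

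Gene length moved with this difference. Over protein-coding genes the Spearman rho of the difference with length was -0.388, and over the 78 it was -0.296. Below 750 nt the median difference was 0.40 in 19 mitochondrial ribosomal protein genes and 0.35 in 428 other protein-coding genes. From 750 to 1000 nt it was 0.36 in 17 and 0.22 in 580, and from 1000 to 1500 nt it was 0.22 in 29 and 0.14 in 1598. From 1500 to 2500 nt it was 0.28 in 11 and 0.03 in 3454, and above 2500 nt it was 0.31 in 2 and -0.12 in 5083. The mitochondrial ribosomal protein genes thus had the higher median in all 5 length classes, and the gap was wider above 1500 nt than below. After a smooth correction for length over all genes the median over the 78 was 0.14, beside 0.05 over protein-coding genes. Cytoplasmic ribosomal protein genes, which are shorter still, had 0.48 before and 0.18 after that correction. The part of RNA quality or library preparation in this was not tested.

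**Figure D4:**
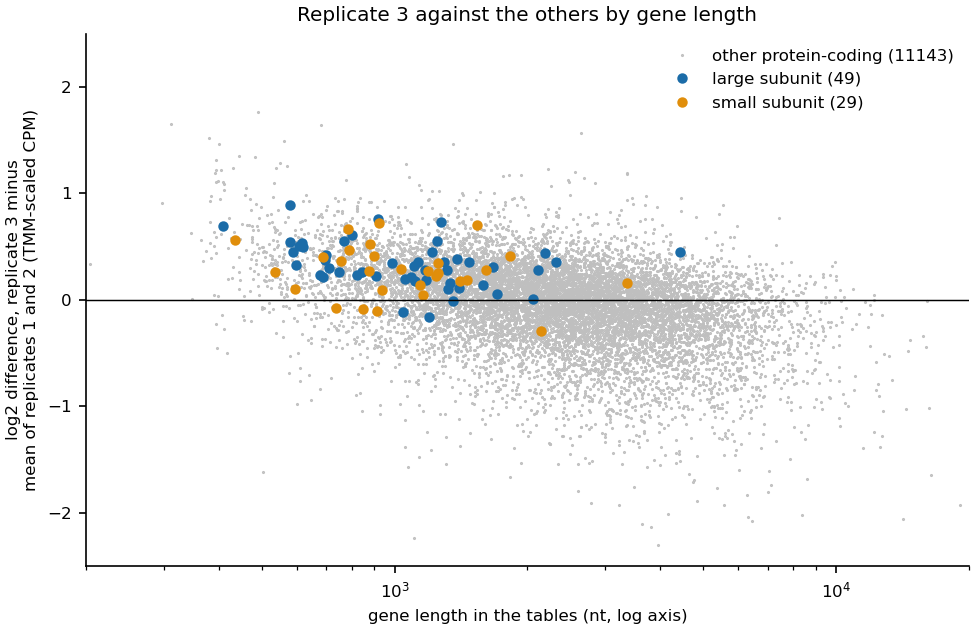
Log2 difference between replicate 3 and the mean of replicates 1 and 2 in TMM-scaled CPM (vertical axis) by gene length (log axis), for the 78 genes by subunit and for other protein-coding genes in grey. Of the 78 points 71 lie above 0, and the grey cloud falls with length.

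The direction depended on the scale. In TPM as deposited, 58 of the 78 were highest in replicate 1, beside 86.5% of expressed protein-coding genes, and 11 were highest in replicate 3, beside 4.4%. With TPM rescaled to protein-coding genes alone, 36 of the 78 were highest in replicate 3, beside 18.5%. The share of protein-coding TPM held by the 78 was 0.536%, 0.546% and 0.569% in replicates 1, 2 and 3.

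The genes were spread over 17 chromosomes, with 11 on chromosome 11, 8 on chromosome 17 and 0 on X or Y. These numbers were not set beside those of all protein-coding genes on the same chromosomes. The start of 20 of the 78 lay within 1000 bp of the start of a gene transcribed in the opposite direction without overlap, or 25.6% (Wilson 95% interval 17.3 to 36.3), beside 17.7% of expressed protein-coding genes. The interval includes that 17.7%. With protein-coding partners alone the share was 23.1% (15.1 to 33.6), beside 11.9% of expressed protein-coding genes, which lies outside the interval. With starts that overlap counted too, a setting chosen after seeing the data, the share was 47.4% of the 78 (36.7 to 58.4). The share over expressed protein-coding genes was then 28.8%, also outside the interval. The intervals treat genes as independent, which neighbours and paralogs are not.

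In 18 of those 20 pairs the partner was protein-coding, and in 15 of them it reached a mean of 1 TPM. The member was the higher gene in 14 of the 18. The 5 pairs with the highest level of the lower gene were Mrpl40 with Hira, Mrpl51 with Ncapd2, Mrpl32 with Psma2, Mrpl49 with Fau and Mrps27 with Ptcd2. Fau, which encodes a cytoplasmic ribosomal protein fused to a ubiquitin-like protein, had 196, 178 and 175 TPM beside 10.5, 7.67 and 7.14 TPM for Mrpl49, across 59 bp between the starts. Ncapd2, a condensin subunit, had 83.8, 57.7 and 37.0 TPM beside 13.6, 11.5 and 11.1 TPM for Mrpl51. Psma2, a proteasome subunit, had 31.9, 26.8 and 25.7 TPM beside 10.1, 10.5 and 9.79 TPM for Mrpl32. Hira, a histone chaperone, had 18.3, 15.8 and 7.60 TPM beside 12.7, 10.2 and 14.5 TPM for Mrpl40, so it was the higher of the pair in replicates 1 and 2 and the lower in replicate 3. Sharing a start region thus went with levels from nearly equal to far apart.

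**Figure D5:**
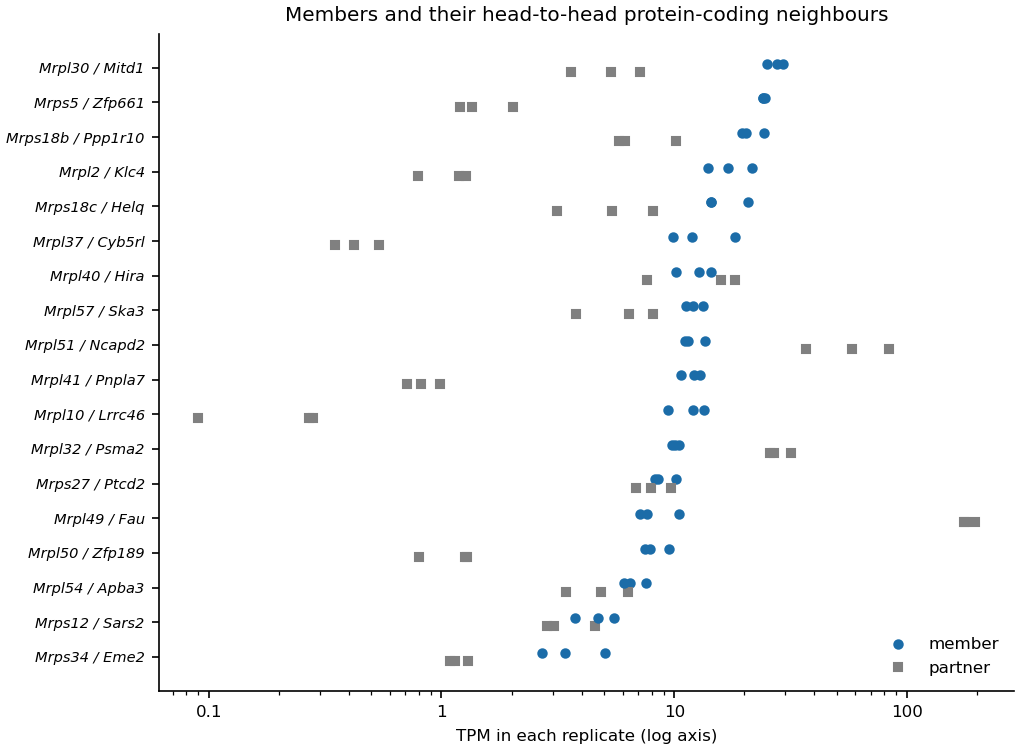
TPM in each replicate (log axis) of the 18 genes with a protein-coding head-to-head neighbour (circles) and of that neighbour (squares). The gene is above its neighbour in 14 pairs by mean TPM, and the neighbour is far above in the pair of Mrpl49 and Fau.

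Some partners also serve mitochondria, and 3 such start regions and 1 further one are printed below for that reason. Mrps12 pairs with Sars2, the mitochondrial seryl-tRNA synthetase, at 4.57, 3.05 and 2.85 TPM beside the values of Mrps12 given above, across 172 bp. Mrps27, whose product is a pentatricopeptide protein of the small subunit, had 10.1, 8.28 and 8.5 TPM, and Ptcd2, another mitochondrial pentatricopeptide protein, 9.72, 7.95 and 6.87 TPM, across 81 bp. Ptcd2 was below Mrps27 in every replicate, and the ranges of the pair overlapped. Mrps11 and Mrpl46, 1 gene of each subunit, face each other on chromosome 7 with GENCODE starts that overlap by 412 bp. The RefSeq start of Mrpl46 lies 442 bp from its GENCODE start, and by the RefSeq starts the pair does not overlap. Both genes are among the 5 lowest of their subunit. Mrpl57 pairs across 49 bp with Ska3, a kinetochore protein, and its window holds the motif of NRF1, a factor known for nuclear genes of mitochondrial proteins. Among pairs with overlapping starts, Mrpl36 faces Ndufs6 and Mrpl47 faces Ndufb5, both genes of respiratory complex I, and Mrpl43 faces Twnk, the mitochondrial DNA helicase. Ndufb5 had 38.9, 38.8 and 35.9 TPM beside 9.50, 9.19 and 9.73 TPM for Mrpl47.

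Start regions were taken from RefSeq (GRCm38.p6), 250 bases before to 50 after the start, for the 63 of the 78 with an entry within 500 bp of the GENCODE start. Each is printed along the strand of the named gene, and capitals mark a match, on either strand, to a motif searched for: those of NRF1 and YY1, CCGGAAG (ETS factors), CCAAT and TATAAA. The letters searched for NRF1 are the capitals at bases 194 to 203 of the Mrpl57 window, with any base allowed at the sixth, and those for YY1 are the capitals at bases 265 to 275 of the Mrps27 window. The windows are Mrps12 at chr7:28741772-28742071 on the minus strand, Mrps27 at chr13:99344536-99344835, Mrps11 at chr7:78782881-78783180 and Mrpl57 at chr14:57825989-57826288, the last 3 on the plus strand.
Mrps12: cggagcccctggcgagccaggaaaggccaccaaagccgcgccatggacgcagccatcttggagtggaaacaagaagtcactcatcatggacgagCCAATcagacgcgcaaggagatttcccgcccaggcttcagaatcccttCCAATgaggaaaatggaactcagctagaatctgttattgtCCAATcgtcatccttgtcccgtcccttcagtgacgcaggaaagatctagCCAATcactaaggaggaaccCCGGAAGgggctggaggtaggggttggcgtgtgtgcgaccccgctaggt
Mrps27: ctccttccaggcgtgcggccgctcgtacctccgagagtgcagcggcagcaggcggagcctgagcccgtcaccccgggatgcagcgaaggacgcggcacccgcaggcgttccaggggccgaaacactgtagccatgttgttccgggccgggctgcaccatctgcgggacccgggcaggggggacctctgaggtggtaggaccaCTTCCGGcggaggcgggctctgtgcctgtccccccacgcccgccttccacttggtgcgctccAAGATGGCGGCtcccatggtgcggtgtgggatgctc
Mrps11: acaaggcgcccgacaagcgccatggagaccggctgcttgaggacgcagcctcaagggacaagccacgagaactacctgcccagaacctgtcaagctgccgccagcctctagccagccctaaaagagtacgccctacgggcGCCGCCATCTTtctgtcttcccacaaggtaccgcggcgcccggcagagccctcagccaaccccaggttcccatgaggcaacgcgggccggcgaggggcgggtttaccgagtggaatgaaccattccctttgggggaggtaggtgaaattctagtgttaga
Mrpl57: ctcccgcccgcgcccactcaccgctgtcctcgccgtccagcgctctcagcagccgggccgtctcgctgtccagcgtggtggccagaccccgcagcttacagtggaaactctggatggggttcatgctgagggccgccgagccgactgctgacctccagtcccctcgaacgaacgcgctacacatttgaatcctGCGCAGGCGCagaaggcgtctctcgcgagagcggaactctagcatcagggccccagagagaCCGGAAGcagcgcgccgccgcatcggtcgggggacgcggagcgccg
The start of the named gene is base 251 in each. The start of the partner falls at base 80 for Sars2, 170 for Ptcd2 and 197 for Ska3. The Mrps12 window holds 4 CCAAT matches, all between the starts of Sars2 and Mrps12, and an ETS match at bases 252 to 258. The Mrps27 window holds an ETS match at bases 203 to 209 and a YY1 match at bases 265 to 275, the second inside the transcribed part.

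Over the 63 windows the ETS letters occurred in 23 (36.5%), beside 22.5% of 6849 windows of expressed protein-coding genes and 8.9% of all 32851 windows in the table. The NRF1 letters occurred in 13 (20.6%), beside 12.9% and 4.6%. They were in 10 of 38 large-subunit and 3 of 25 small-subunit windows. The YY1 letters occurred in 4 (6.3%), beside 2.1% and 0.6%, in Mrpl37, Mrps11, Mrps18a and Mrps27. CCAAT was in 25 (39.7%), beside 41.2% and 37.4%, and TATAAA in 3 (4.8%), beside 5.8% and 13.6%. A match describes the letters in the window and does not show that a factor binds there. Mrpl42, the highest gene, held a CCAAT match and no other of these motifs.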

How the data were processed

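RNA-seq tables of 3 replicates were analysed. The authors deposited per gene an expected count (an estimated count, not normalized), TPM and FPKM, and the lengths, per the file headers. FPKM was not used. STAR, RSEM and the build mm10 appear in the submitters' processing notes, without versions. The annotation release and strand setting are not given in the sources used here, so reads of overlapping genes on opposite strands may not be separated. Of 55487 IDs, 55227 matched GENCODE vM21 (GRCm38).

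TPM was read as deposited, levels were log2(TPM + 1), and errors are SDs over replicates. Estimated counts were rounded for edgeR 4.0.16 (R 4.3.3; TMM, filterByExpr, intercept-only goodness-of-fit with trended dispersion). It was tested on simulated data, where it recovered 196 of 200 genes changed 4-fold in 1 replicate, with 3 false calls among 12322 genes. The simulated counts followed the same model that the test fits, and the changed genes were drawn without those of lowest CPM. Changes smaller than 4-fold were not simulated, so the share of them that would be found is not known. DESeq2 1.42.0 gave alternative size factors. Length corrections were splines with 6 degrees of freedom. Python 3.11.15, pandas 2.3.3, scipy 1.17.1 and biopython 1.88 did the rest.

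Gene lists, members, alternatives and the comparison of replicate 3 with the others were chosen with earlier results of these data known. Genes named were the 5 highest and 5 lowest of each subunit, paralogs, genes with names that differ from their place, genes with non-whole counts, the 5 leading head-to-head pairs, and the 2 highest and 2 lowest of each other list. Any other was chosen after its values were seen. A gene that this rule names among the tRNA synthetases is not reported here.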

Additional observations from a re-analysis of the deposited data

How the results depend on the processing

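The 9 results were recomputed under 66 alternatives, 64 planned and 2 chosen after seeing the data. In 51 the value stayed within the allowed spread, in 11 it moved and in 4 it changed sign. The level of the genes above expressed protein-coding genes, 0.85, became -0.213 in CPM, 0.646 with means in place of medians and 3.043 against all protein-coding genes. The difference between subunits, 0.066, became -0.089 with proteins of other names added and -0.222 with those and the position in the particle together, and ran from -0.008 to 0.11 when each replicate was left out in turn. The cause was not tested. In CPM the difference by origin became 0.05 and that from cytoplasmic genes 3.48, and the latter was 4.03 with means. The SD over genes, 0.844, became 0.931 with a pseudocount of 0.1, 0.998 in CPM and 0.921 with TPM rescaled to protein-coding genes. The interquartile range was 0.928. It is counted among the 11 that moved, but it is a different measure from the SD and does not show a wider spread. The median difference of replicate 3 became 0.143 after the length correction, and the head-to-head share 47.4% with overlapping starts. Depth limits the low end, where Mrpl23 had 22 counts in replicate 3.

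No paired analysis was possible because a single group, that of RNA-seq, was measured here, and pairing needs 2 groups.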
